A study of Mus musculus and Rattus norvegicus with 21 samples.

Results

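Binding of the transcription factors (TFs) FOXE1 and GLIS3 was compared in PCCl3, a line of rat thyroid follicular cells, from chromatin immunoprecipitation followed by sequencing (ChIP-seq). The comparison used all 9448 peaks of the FOXE1 library and all 46004 peaks of the GLIS3 library. The series holds 295051 peaks in 13 peak lists and otherwise covers NKX2.1 in PCCl3 cells and TFs or histone marks in mouse thyroid. FOXE1 was the endogenous protein, precipitated with an antibody against FOXE1. GLIS3 was precipitated through an HA tag. According to the study's methods, it was a Flag-Glis3-HA protein made from a doxycycline-inducible lentiviral construct in a selected PCCl3 line. These cells were treated with doxycycline before cross-linking. The GLIS3 list thus describes the binding of added, tagged GLIS3 and not of the cells' own protein. Whether the FOXE1 or NKX2.1 cells carried or induced this construct was not stated in the labels or methods. The ChIP-seq methods describe only the doxycycline-treated line among PCCl3 cells, and then list HA, NKX2.1 and FOXE1 antibodies for PCCl3. FOXE1 may therefore have been mapped in cells with added GLIS3. Each TF was represented by 1 library, so no difference could be tested between samples, and every 95% interval below covers the counting of peaks only and treats peaks as independent. FOXE1 and GLIS3 were called against the same input library (chromatin without immunoprecipitation), whereas NKX2.1, used here as a further TF for comparison, had an input of its own. A part of that shared input in the overlap of FOXE1 and GLIS3 was not tested. Read depth is unknown from the lists, which hold positions but no score.

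FOXE1 (also called TTF2) is a forkhead TF needed for formation and migration of the thyroid and for expression of thyroid genes. GLIS3 is a Krüppel-like zinc finger TF whose loss causes congenital hypothyroidism, with low expression of genes for thyroid hormone synthesis. NKX2.1 (TTF1), a homeodomain TF, is required for development and function of thyroid follicular cells. Forkhead TFs, GLIS proteins and homeodomain TFs recognize different DNA motifs, and an overlap of their peaks shows binding in the same stretch of chromatin over a population of cells, not binding to the same molecule of DNA at the same time.

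Each FOXE1 and GLIS3 peak was a window of 300 bp around its midpoint on the rat assembly rn6, so the lists covered 2.83 Mb and 13.8 Mb. FOXE1 peaks lay far apart: the median distance from a FOXE1 midpoint to the next FOXE1 midpoint was 38139 bp, and only 3.58% had one within 1000 bp. GLIS3 peaks were denser, with a median of 6155 bp to the nearest GLIS3 midpoint and 13.7% with a neighbour within 1000 bp.

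Peaks were first compared by overlap of at least 1 bp, to see how far FOXE1 occupied the loci bound by GLIS3. Of the FOXE1 peaks 42.9% overlapped a GLIS3 peak (4050 of 9448, 95% interval 41.9 to 43.9%). Of the GLIS3 peaks 8.81% overlapped a FOXE1 peak (4051 of 46004, 8.55 to 9.07%). The lists differ in length, so the same set of shared loci was a large fraction of the called FOXE1 peaks and a small fraction of the called GLIS3 peaks. Lack of a called peak does not show absence of the TF. The study instead scored merged peak regions by fragment counts, and it reported most FOXE1 loci as near GLIS3 loci. The loci were shared nearly one to one, since only 3 FOXE1 peaks overlapped 2 GLIS3 peaks and only 2 GLIS3 peaks overlapped 2 FOXE1 peaks. Where peaks overlapped, the median distance between the FOXE1 and GLIS3 midpoints was 63 bp. In 43.5% of these FOXE1 peaks the midpoints were within 50 bp, and in 18 they were at the same base.

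The same measures were taken with NKX2.1, whose list was about as long as that of GLIS3. NKX2.1 peaks (n = 47390) were overlapped by 39.1% of FOXE1 peaks (3691 of 9448, 38.1 to 40.1%). The share with GLIS3 was higher than the share with NKX2.1 by 3.80 percentage points (2.40 to 5.2), and it was the higher of the pair on 15 of 21 chromosomes. Intervals for GLIS3 against NKX2.1 treat the shares as independent, although they come from the same FOXE1 list. A GLIS3 peak without an NKX2.1 peak lay at 2014 FOXE1 peaks, and the reverse at 1655. Overlapping FOXE1 midpoints were as near to NKX2.1 as to GLIS3, with a median of 59 bp. In this set 43.7% were within 50 bp, a difference of -0.20 points (-2.41 to 2.01) for GLIS3 against NKX2.1. Among these libraries, FOXE1 peaks thus overlapped the GLIS3 list more often than the NKX2.1 list, by a margin that depended on the overlap required. It was 2.51 points (1.16 to 3.86) for at least 150 bp and 1.58 points (0.485 to 2.67) for midpoints within 50 bp. A part of the shared input, of the tagged GLIS3 or of peak calling in this margin was not tested. The interval of the difference in closeness included 0. Seen from GLIS3, 20.3% of NKX2.1 peaks overlapped a GLIS3 peak, 22.5 points (21.5 to 23.6) below the share of FOXE1 peaks that did. The FOXE1 list was shorter (9448 against 47390 peaks), and a part of list length, depth or input in this gap was not tested. The NKX2.1 peaks on GLIS3 were, however, closer to it, with a median of 51 bp and 49.5% within 50 bp.

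Distances from every FOXE1 midpoint to its nearest GLIS3 midpoint were then divided into classes and set beside the share of all chromosome positions that fall into each class. The positions include sequence to which reads cannot be mapped and chromatin that is closed, so the ratio of both shares is a description of crowding and not a measure against accessible chromatin, which was not measured in these cells. FOXE1 peaks within 50 bp of a GLIS3 midpoint made up 18.7% of the list against 0.166% of positions, a ratio of 112. From 51 to 150 bp the share was 16.5% and the ratio 50.3, and from there to the limit of overlap, just under 300 bp, 7.67% and 15.8. The crowding of FOXE1 reached past the GLIS3 peak itself, since 11.4% of FOXE1 peaks lay 300 to 1000 bp away, beyond any overlap, where the ratio was 5.43 (5.13 to 5.74). From 1 to 5 kb the ratio was 1.46 (1.39 to 1.54), with 13.7% of FOXE1 peaks. From 5 to 20 kb it was 0.915 (0.875 to 0.956), close to the share of positions. Farther than 20 kb from any GLIS3 midpoint lay 69.2% of positions but 15.3% of FOXE1 peaks, a ratio of 0.220. FOXE1 peaks thus became sparser at each step away from GLIS3.

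**Figure D1:**
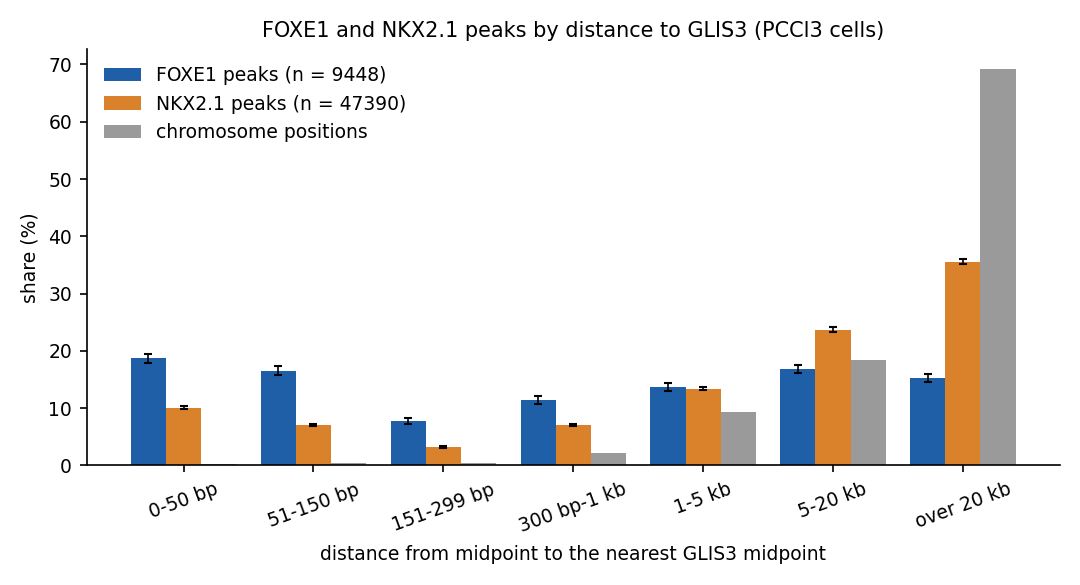
Share of FOXE1 peaks (blue) and NKX2.1 peaks (orange) in classes of distance to the nearest GLIS3 midpoint, with 95% Wilson intervals, and share of chromosome positions in the same classes (grey, in %). FOXE1 exceeds NKX2.1 in every class below 1 kb, and both are below the grey bar beyond 20 kb, where FOXE1 has 15.3%, NKX2.1 35.5% and positions 69.2%. The lists differ in length (9448 FOXE1 and 47390 NKX2.1 peaks) and in input.

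Counted cumulatively, 54.3% of FOXE1 peaks had a GLIS3 midpoint within 1 kb, 68.0% within 5 kb, 84.7% within 20 kb and 97.2% within 100 kb. The median distance from FOXE1 to GLIS3 was 576 bp (quartiles 77 and 9066 bp). In the other direction the median GLIS3 peak was 34244 bp from the nearest FOXE1 peak. The NKX2.1 peaks had a median of 9093 bp to GLIS3 and 27.4% of them were within 1 kb. Their ratios to positions, 60.6 within 50 bp and 21.4 from 51 to 150 bp, were lower than those of FOXE1 in both classes. A part of the longer NKX2.1 list in these lower values was not tested.

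Counted in steps of 100 bp around the 39695 GLIS3 peaks that had no other GLIS3 midpoint within 1000 bp, FOXE1 midpoints numbered 29.8 per 100 bp for every 1000 GLIS3 peaks in the innermost step. This density was 9.32 from 100 to 200 bp, 4.45 from 200 to 300 bp and 2.0 from 500 to 600 bp. It was 1.15 from 900 to 1000 bp, 1.45 from 1600 to 1700 bp and 1.10 from 2900 to 3000 bp, against 0.340 over the numbered chromosomes and X. Around single GLIS3 peaks the steep decrease of FOXE1 thus lay within the first 700 bp, and its density stayed above the genome level out to 3 kb. The absence of other GLIS3 peaks within 1000 bp was part of the choice of these peaks. Around GLIS3 peaks in clusters, FOXE1 had a second, broad maximum from 700 to 800 bp. It was 10.7 for clusters of 2 and 17.9 (24 midpoints) for clusters of 3 or more. The neighbouring GLIS3 peaks of a cluster lie in this range by definition, and a FOXE1 peak on one of them is counted again from the other. NKX2.1 also had such a maximum, 22.8 from 600 to 700 bp for clusters of 2 and 26.2 from 500 to 600 bp for clusters of 3 or more.

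**Figure D2:**
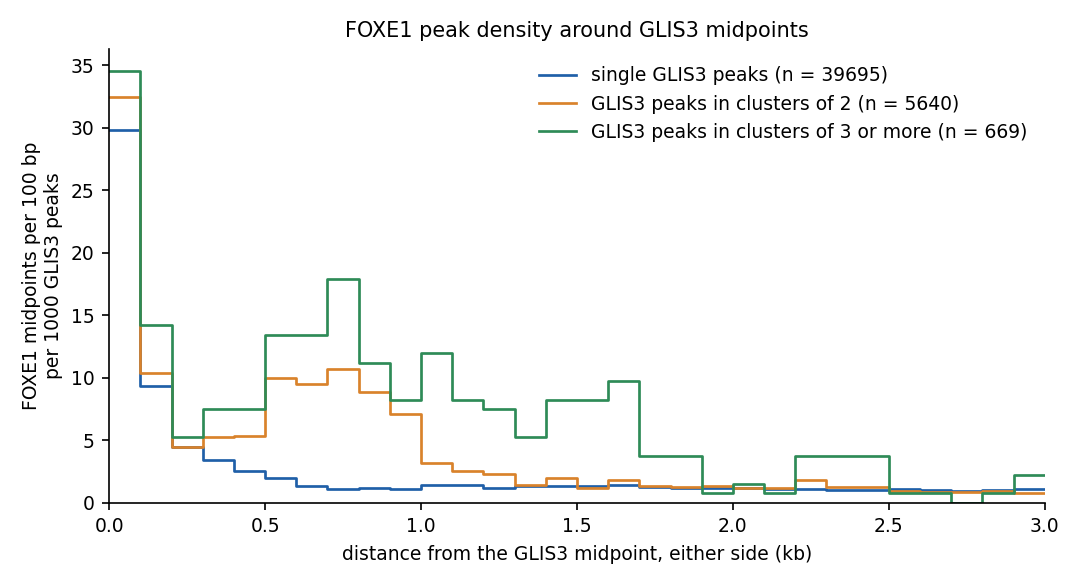
FOXE1 midpoints per 100 bp and per 1000 GLIS3 peaks (vertical axis) against the distance from the GLIS3 midpoint in kb, both sides joined, for GLIS3 peaks alone, in clusters of 2 and in clusters of 3 or more. The innermost step holds 29.8, 32.4 and 34.6 in that order, and only the lines of clustered peaks have a second maximum, between 0.5 and 1 kb. There, FOXE1 on a neighbouring GLIS3 peak of the same cluster is counted again.

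To ask whether FOXE1 occupancy was higher where several GLIS3 peaks lie together, GLIS3 midpoints at most 1000 bp apart were chained into clusters. This gave 39695 single GLIS3 peaks, 2820 clusters of 2, 212 clusters of 3 and 8 clusters of 4 or more, of which the largest had 5. The share of clusters with a FOXE1 peak on any of their GLIS3 peaks was larger the more GLIS3 peaks a cluster held. It was 8.69% for single peaks, 17.6% for clusters of 2 (496 of 2820, 16.2 to 19.0%), 25.9% for clusters of 3 (55 of 212, 20.5 to 32.2%) and 37.5% for clusters of 4 or more (3 of 8, 13.7 to 69.4%). A cluster with more GLIS3 peaks offers more chances to hold FOXE1. If each GLIS3 peak had the share of single peaks independently of its neighbours, the first 3 of these values would be 8.69%, 16.6% and 23.9%, and those for clusters of 2 and 3 lie inside the measured intervals. Most of the difference between clusters of different size thus equalled what the number of GLIS3 peaks alone would give.

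The share per GLIS3 peak showed the remainder. It was 8.69% for single peaks (8.41 to 8.97%), 9.41% for peaks in clusters of 2 (8.68 to 10.2%) and 10.8% for peaks in clusters of 3 or more (72 of 669, 8.63 to 13.3%). The ratio of the last to single peaks was 1.24 (0.994 to 1.54), an interval that just includes 1. For all 6309 clustered peaks together the ratio was 1.10 (1.01 to 1.2), but the interval included 1 with a gap of 500 bp (1.14, 0.9 to 1.45) or 5000 bp (1.04, 0.981 to 1.1) in place of 1000 bp. Clustered peaks had the higher share on 16 of 21 chromosomes. NKX2.1, measured the same way, was on 20.9% of all GLIS3 peaks, 20.9% of single peaks and 19.1% of those in clusters of 3 or more (ratio 0.915, 0.782 to 1.07). By position inside a cluster, FOXE1 was on 10.9% of the end peaks (n = 440) and 10.5% of the inner peaks (n = 229) of clusters of 3 or more, with intervals of 8.33 to 14.2% and 7.14 to 15.1% that overlapped.

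**Figure D3:**
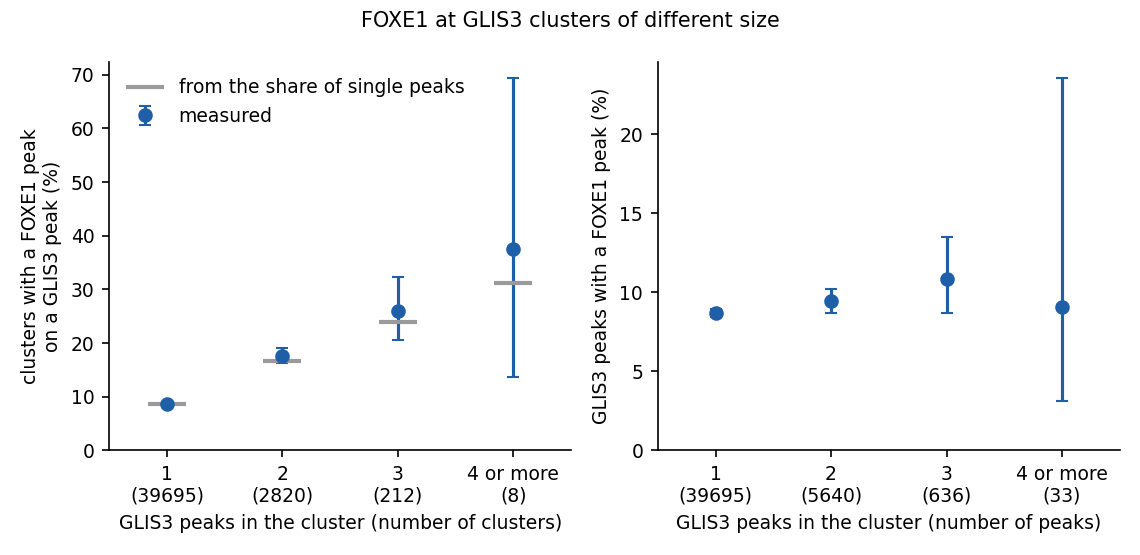
Left, share of GLIS3 clusters with a FOXE1 peak on any of their GLIS3 peaks (points, 95% Wilson intervals) and the share that independent peaks with the single-peak share would give (grey dashes), by number of GLIS3 peaks in the cluster. Right, share of GLIS3 peaks, counted one by one, with a FOXE1 peak, for the same classes. The left shares go from 8.69% to 37.5%, near the dashes, whereas the right shares stay between 8.69% and 10.8%.

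FOXE1 on both GLIS3 peaks of a cluster was uncommon. Among the 2820 clusters of 2, neither peak had FOXE1 in 2324, 1 peak had it in 461 and both had it in 35, where independence would give 25. Given FOXE1 on one peak of the pair, the other had it in 13.2%, against 9.41% of all peaks in clusters of 2. The interval of the former, taken over the 496 pairs with FOXE1, was 9.74 to 17.6%, with its lower end close to the latter. FOXE1 peaks that were clustered themselves were more often on GLIS3. The 338 FOXE1 peaks in groups of 2 or 3 overlapped GLIS3 in 52.1% of cases, against 42.5% of the 9110 lone FOXE1 peaks, a difference of 9.55 points (4.13 to 14.9).

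Over a wider neighbourhood the number of GLIS3 peaks went with FOXE1 only at its lower end. Single GLIS3 peaks with no other GLIS3 peak within 50 kb carried FOXE1 in 6.89% of cases (257 of 3728, 6.12 to 7.75%). With 1 other GLIS3 peak in this range the share was 8.59%, with 5 to 9 it was 8.90%, and with 10 to 22 it was 8.55%. The NKX2.1 share of the same peaks was 20.9%, 24.5%, 19.7% and 16.0% in that order, and its part in the FOXE1 shares was not tested. Isolated GLIS3 peaks were thus the poorest in FOXE1, and the addition of further GLIS3 peaks beyond the first came with no steady increase.

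The 5 clusters with the most GLIS3 peaks held at most 1 FOXE1 peak each. For comparison, 18.2% of all clusters of 2 or more GLIS3 peaks (554 of 3040) carried FOXE1, and 1.55% had it on 2 or more of their peaks. The cluster of 5 GLIS3 peaks at chr5:165624289-165626765 had no FOXE1 peak within 66206 bp of a GLIS3 midpoint. Of the next 4, each with 4 GLIS3 peaks, chr3:9484080-9487101 and chr19:25131852-25134194 had no FOXE1 peak, with the nearest at 11604 and 11329 bp. Those at chr8:36564317-36566842 and chr2:195906288-195908780 had 1 FOXE1 peak each, at 152 and 122 bp from a GLIS3 midpoint. In all, 3955 clusters or single peaks had 1 FOXE1 peak on their GLIS3 peaks, 46 had 2 and 1 had 3. That one was the cluster at chr19:54109789-54111666, where each of 3 GLIS3 peaks carried a FOXE1 peak, the closest with midpoints 15 bp apart, and 1 NKX2.1 peak lay in the span. The widest of those with 2 was chr15:33054359-33056590, where 3 GLIS3 peaks stood with 2 FOXE1 and 2 NKX2.1 peaks. At chr10:81858766-81860965, 3 GLIS3 peaks carried 2 FOXE1 peaks, the closest 9 bp away, with no NKX2.1 peak. At chr19:40952398-40954245 the closest FOXE1 and GLIS3 midpoints were 8 bp apart. The cluster at chr2:266314822-266316664 held 3 GLIS3 and 3 FOXE1 peaks in its span, of which 2 FOXE1 peaks were on GLIS3. Genes near these regions were not analysed here.

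The overlap of FOXE1 and GLIS3 went with NKX2.1. GLIS3 peaks that overlapped an NKX2.1 peak had FOXE1 in 21.3% of cases (2050 of 9610, 20.5 to 22.2%), and those without NKX2.1 in 5.50% (2001 of 36394, 5.27 to 5.74%). The ratio was 3.88 (3.66 to 4.11), and the share was higher with NKX2.1 on 21 of 21 chromosomes. FOXE1 peaks with NKX2.1 overlapped GLIS3 in 55.2% and those without in 35.0%, a difference of 20.2 points (18.1 to 22.2). Of the 4050 FOXE1 peaks on GLIS3, 50.3% also overlapped NKX2.1, against 30.7% of the FOXE1 peaks without GLIS3. FOXE1 and GLIS3 therefore met without NKX2.1 at 2014 FOXE1 peaks, and 3743 FOXE1 peaks (39.6%) overlapped neither of the other TFs. All 3 libraries were labelled as PCCl3, but whether all came from cells with the GLIS3 construct was not given. A part of chromatin accessibility common to all 3 lists was not tested.

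The NKX2.1 share of FOXE1 peaks did not decrease evenly with distance from GLIS3. It was 53.1% for FOXE1 within 50 bp of a GLIS3 midpoint, 49.0% from 51 to 150 bp and 45.9% in the rest of the range of overlap. Just beyond overlap, from 300 to 1000 bp, it was 26.5% (23.9 to 29.2%), and from 1 to 5 kb 26.7%. Farther out it was higher again, with 31.8% from 5 to 20 kb and 36.0% beyond 20 kb (33.6 to 38.5%). FOXE1 peaks next to but not on GLIS3 were thus the ones with the least NKX2.1.

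**Figure D4:**
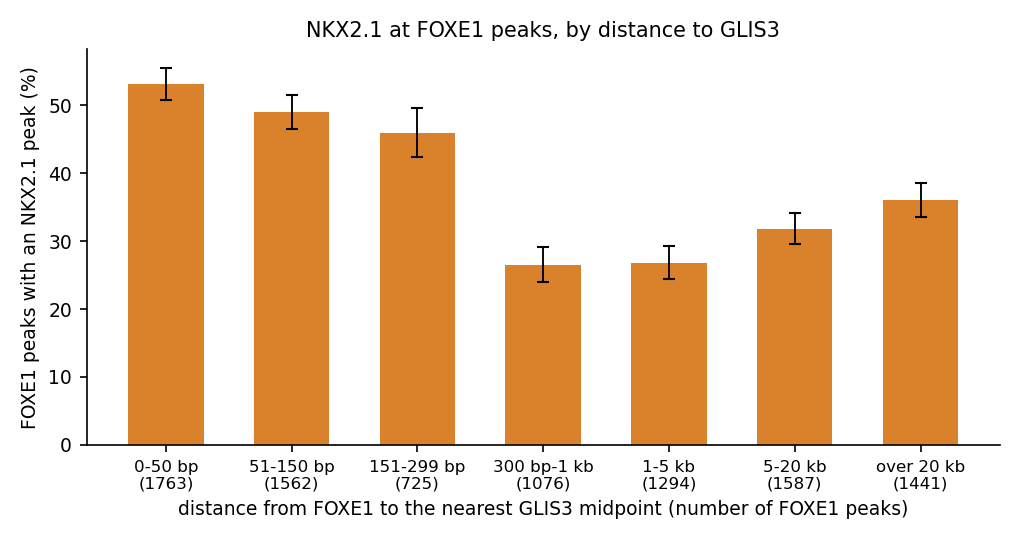
Share of FOXE1 peaks that overlap an NKX2.1 peak (%, 95% Wilson intervals) by distance from FOXE1 to the nearest GLIS3 midpoint, with the number of FOXE1 peaks under each class. The share is 45.9 to 53.1% where FOXE1 overlaps GLIS3, lowest from 300 bp to 5 kb, and 36.0% beyond 20 kb.

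At the gap of 1000 bp, the only one at which this split was made, the per-peak difference between clustered and single GLIS3 peaks was found among those without NKX2.1. The intervals here treat GLIS3 peaks of the same cluster as independent and may be too narrow. Of GLIS3 peaks without NKX2.1, those in clusters of 3 or more had FOXE1 in 8.50% of cases (46 of 541) and single ones in 5.33% (1674 of 31392), a ratio of 1.59 (1.2 to 2.11). With NKX2.1 the shares were 20.3% (26 of 128) and 21.4% (1774 of 8303), a ratio of 0.951 (0.673 to 1.34). The first ratio divided by the second was 1.68 (1.07 to 2.62). For clusters of 2 or more the ratios were 1.23 (1.09 to 1.38) without and 0.988 (0.883 to 1.1) with NKX2.1. The highest of these shares thus occurred with NKX2.1 whether the GLIS3 peak was clustered or not.

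There were 3028 FOXE1 peaks with no GLIS3 midpoint within 5 kb. Of these 98.8% had no other FOXE1 midpoint within 1000 bp, against 96.4% of all FOXE1 peaks. Groups of 2 or more FOXE1 peaks numbered 168 in the whole list, and 17 of them lay wholly beyond 5 kb from GLIS3. The widest was a pair at chr8:28140715-28142008, 36915 bp from the nearest GLIS3 midpoint and without NKX2.1. Pairs at chr1:213605580-213606822, chr5:141219073-141220262 and chr1:48222306-48223471 were also without NKX2.1, at 10926, 30682 and 16417 bp from GLIS3. The pair at chr17:42628337-42629523 was the most remote of these 5, at 131504 bp from GLIS3, and both of its FOXE1 peaks overlapped NKX2.1. In total, 265 FOXE1 peaks were over 100 kb from any GLIS3 peak or on a sequence without one. On the numbered chromosomes the farthest was at chr2:134159032-134159331, 3955239 bp from GLIS3.

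The fraction of FOXE1 peaks on GLIS3 varied little between chromosomes, although the number of peaks varied widely. The density of FOXE1 ran from 0.375 peaks per Mb on chromosome X to 8.21 on chromosome 10, and that of GLIS3 from 3.49 to 34.6 on the same chromosomes. The FOXE1 share on GLIS3 nevertheless lay between 39.4% and 49.3% over 21 chromosomes, with a median of 42.7%. It was highest on chromosome 13 (49.3%, 43.8 to 54.9%), 19 (47.1%, 41.5 to 52.8%) and 12 (45.4%, 39.5 to 51.3%), and lowest on 11 (39.4%, 33.8 to 45.3%), 17 (40.4%, 34.5 to 46.6%) and 18 (41.5%, 34.7 to 48.5%). The interval of 1 chromosome, 13, left out the share over all sequences. A denser cover of GLIS3 did not go with a clearly larger share: over the 21 chromosomes, Pearson's r between GLIS3 density and the FOXE1 share was 0.255 and Spearman's rho 0.368. The densities of FOXE1 and GLIS3 themselves had r = 0.947 and rho = 0.942, with r = 0.961 without the 2 chromosomes farthest from the median GLIS3 density. High values were not particular to this pair, since the densities of FOXE1 and NKX2.1 had r = 0.883 and rho = 0.856. These points share their libraries, input and differences in gene content and are not replicates.

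**Figure D5:**
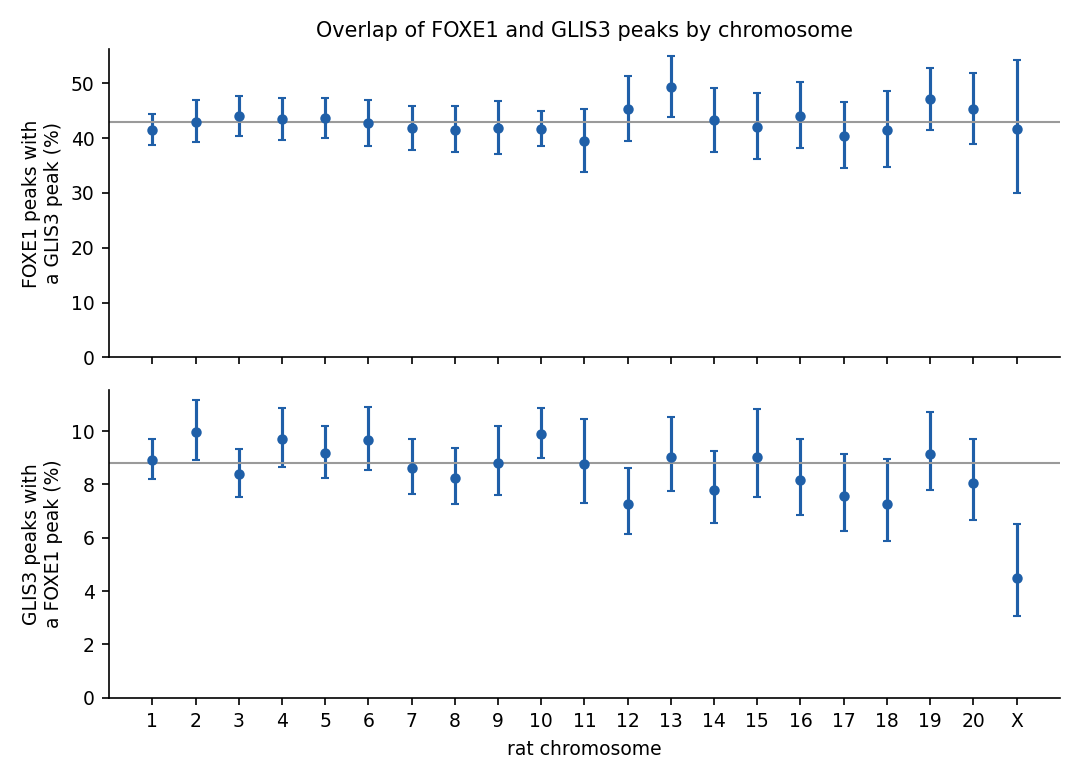
Share of FOXE1 peaks overlapping GLIS3 (top) and of GLIS3 peaks overlapping FOXE1 (bottom) on each rat chromosome, in %, with 95% Wilson intervals. Grey lines mark the shares over all sequences, 42.9% and 8.81%. Chromosome 13 is the one interval off the line at the top, and chromosome X is lowest at the bottom with 4.48%.

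Chromosome X held few FOXE1 peaks, and the wide interval of their share on GLIS3 included the share over all sequences. It held 60 FOXE1, 558 GLIS3 and 980 NKX2.1 peaks, which were 0.635%, 1.21% and 2.07% of the lists. There were 10.8 FOXE1 peaks for every 100 GLIS3 peaks on X, against a median of 19.9 over chromosomes and 23.7 on chromosome 10. Of the few FOXE1 peaks on X, 41.7% overlapped GLIS3 (25 of 60, 30.1 to 54.3%). The ratio of this share to the share of positions was 199.8 on X, against a median of 45.6 over chromosomes. This high ratio came from the sparse GLIS3 peaks of X and not from a larger FOXE1 share. Positions that would overlap GLIS3 were 0.209% of X, against a median of 0.929%, while the median FOXE1 share was 42.7%. Of the GLIS3 peaks on X only 4.48% overlapped FOXE1 (3.05 to 6.53%), below the share over all sequences. Chromosome 12 was also below it, at 7.28%, and chromosomes 2 and 10 were above it, at 9.98% and 9.89%. The shortage of FOXE1 on X was present among GLIS3 peaks with NKX2.1 (8.28% with FOXE1) and without it (3.15%), both the lowest values of the 21 chromosomes. Both values rest on only 25 GLIS3 peaks with FOXE1 together and have no intervals. They are not separate from the low number of FOXE1 peaks on X. Outside the numbered chromosomes and X there were 9 FOXE1 peaks, of which 4 overlapped GLIS3.

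In windows of 1 Mb, FOXE1 and GLIS3 peaks were numerous in the same places. Over 2766 windows, Pearson's r between their numbers was 0.847 and Spearman's rho 0.873. These were 0.765 and 0.842 for FOXE1 and NKX2.1, and 0.759 and 0.876 for GLIS3 and NKX2.1. No FOXE1 peak was found in 937 windows and no GLIS3 peak in 440. Of the 1829 windows with FOXE1, 35 had no GLIS3 peak (1.91%), and they held 37 FOXE1 peaks. Of the 2326 windows with GLIS3, 532 had no FOXE1 peak (22.9%), and 37 of these held at least 10 GLIS3 peaks. The window richest in FOXE1, chr19:59000001-60000000, held 25 FOXE1 and 66 GLIS3 peaks. The window chr7:12000001-13000000 had the most GLIS3 peaks, 122, and 22 FOXE1 peaks.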

How the data were processed

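According to the submitters' notes and the study's methods, the authors removed adapters (Cutadapt 1.12), mapped reads uniquely to rn6 (Bowtie 1.2), discarded duplicates (Picard 1.110), called peaks against the matching input with HOMER 4.10.3 and resized them to 300 bp. The submitters' notes also name bedtools 2.24.0, where the methods give another version. The deposited files hold peak positions without a score or count, so no list could be ranked or made stricter, and depth is unknown. Here, 2 FOXE1 peaks of other width were reset to 300 bp, peaks overlapped when midpoints were at most 299 bp apart, and clusters were chains of midpoints at most 1000 bp apart. Chromosome lengths were the largest peak ends. Wilson intervals were used for shares, Newcombe intervals for differences and log-ratio intervals for ratios (Python 3.11.15, numpy 2.4.6, pandas 2.3.3), after tests on simulated data. The named regions were the 5 clusters with the most GLIS3 peaks, the 5 with the most FOXE1 peaks on GLIS3, the 5 largest FOXE1 groups without GLIS3 within 5 kb and the 3 chromosomes at each end of the range, with ties broken by width. The windows, the remotest FOXE1 peak, chromosomes X, 2, 10 and any further comparison were added after values were seen. Members and comparisons were chosen with earlier results of these data known. Alternatives varied the overlap, the gap, the sequences and the NKX2.1 status. An rn6 genome and annotation were not used here.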

Additional observations from a re-analysis of the deposited data

How the results depend on the processing

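Leaving out each chromosome in turn gave FOXE1 shares on GLIS3 of 42.7 to 43.1%, GLIS3 shares with FOXE1 of 8.71 to 8.86%, a margin of GLIS3 over NKX2.1 of 3.13 to 4.11 points, a ratio of GLIS3 peaks with to without NKX2.1 of 3.81 to 3.94, and a cluster ratio of 1.15 (without chromosome 15) to 1.27, whose interval excluded 1 in 9 of 21 cases. An overlap of at least 150 bp lowered the shares to 35.2% of FOXE1 and 7.23% of GLIS3 peaks, and midpoints within 50 bp to 18.7% and 3.83%, as fewer pairs qualify. With midpoints within 50 bp the margin over NKX2.1 was 1.58 points and the ratio by NKX2.1 status 3.5. Distances between ends put 56.1% of FOXE1 peaks within 1 kb of GLIS3, and midpoints within 1 kb gave a median of 53.8% over chromosomes. The cluster ratio was 1.13 with a gap of 2000 bp and 1.05 with 5000 bp. For clusters of 2 or more it was 1.14, 1.10 and 1.04 with gaps of 500, 2000 and 5000 bp. With 500 bp only 6 GLIS3 peaks were in clusters of 3 or more, none had FOXE1 and the ratio was 0. For clusters of 3 or more it was 1.59 without and 0.951 with NKX2.1. Deposited peak ends and leaving out unplaced sequences moved no share beyond its interval. The alternatives for the NKX2.1 comparisons and for clusters of 2 or more were added after seeing the data. A stricter peak threshold was not run, since the lists hold no score. No paired analysis between samples was possible because each TF had 1 library. The intervals for GLIS3 against NKX2.1 did not use the pairing of both shares by FOXE1 peak. Peak lists of unknown depth limit every share.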
